A study of Mus musculus with 10 samples.

Results

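The genes described here are the clustered replication-dependent histone genes of the mouse, the families that supply the bulk of chromatin protein when DNA is copied. Members were chosen by name, as every row of the deposited gene tables whose symbol starts with Hist1h, Hist2h, Hist3h or Hist4h. That rule found 70 of 36806 rows, namely 6 genes of the linker histone H1, 20 of H2A, 19 of H2B, 12 of H3 and 13 of H4, and it used no measured value. The study set Ago4-/- mice against Ago4+/+ littermates, all C57BL/6. Ago4 encodes an Argonaute, a protein that binds small RNAs. The mRNA came from whole testes at day 3 and day 8 and from leptotene/zygotene spermatocytes and pachytene spermatocytes of mice aged 70 days, with 1 library per genotype at each stage and 8 in all. Small RNA of pachytene cells made up 2 further libraries, which are not analysed here. The sources used here do not give how the Ago4 allele was made.

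The values came from 4 tables of the authors' Cuffdiff comparisons, for day 3, pre-meiotic, leptotene/zygotene and pachytene material. Each table numbers its conditions only as a first (q1) and a second (q2), and no label ties either number to a genotype or says that the order is the same in every table. No genotype was therefore attached to any value. No table carries the name of the day 8 testes, and the pre-meiotic table was set among young testes without an age. With 1 library per condition nothing could be tested over animals, and the authors' own p- and q-values compare 2 libraries. Ago4 itself, listed as Eif2c4, had 1.23 FPKM in q2 and 0.897 in q1 at day 3, 3.34 in q2 and 2.53 in q1 in the pre-meiotic table, 3.26 in q2 and 1.67 in q1 in the leptotene/zygotene table and 12.1 in q2 and 4.37 in q1 in the pachytene table. FPKM is fragments per kilobase of transcript scaled to the mapped fragments of the library, a level per length.

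Each nucleosome wraps DNA around 2 copies each of H2A, H2B, H3 and H4, and H1 binds the linker between nucleosomes. The genes for these proteins lie in tight clusters, have no introns as a rule, and are transcribed in S phase. Their main transcripts end in a conserved stem-loop in place of a poly(A) tail, although some members also make polyadenylated transcripts, mostly in cells that have left the cell cycle. In the male germline a few cluster genes are testis variants that spermatocytes use: Hist1h1t encodes the linker histone H1t, Hist1h2ba encodes TH2B and Hist1h2aa encodes TH2A. TruSeq RNA kits of this kind pick out polyadenylated RNA, so the levels below are those of transcripts that such a selection retains, and they are no measure of total histone mRNA.

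Of the 70 members, 56 carry a Hist1 name, 10 a Hist2 name, 3 a Hist3 name and 1 the name Hist4h4. In the coordinates of the tables, for which the sources used here name no genome build, 55 Hist1 genes lie within 2219 kb of chromosome 13, from 21807632 to 24026720. The remaining one, Hist1h2al, lies far from them on the same chromosome, at 51298057 to 51298434. The Hist2 genes span 69.4 kb of chromosome 3 and the Hist3 genes 29.1 kb of chromosome 11, and Hist4h4 is on chromosome 6. The median locus is 538 bp long, and 48 of 70 are at most 1000 bp. Many members are near-identical copies between which short reads may be split arbitrarily, and 9 share their locus in the table with another gene. Hist1h2ao and Hist1h2ap have the same value in all 8 columns and may hold 1 measurement, and every member level is uncertain in this way to some degree. The kit is not stated to keep the strand, so overlapping genes on opposite strands cannot be told apart.

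Promoter windows of 300 bases, from 250 bases before to 50 after the start, are shown for 7 members on which the results turn. They are the testis variants Hist1h1t and Hist1h2ba, then 3 genes with high levels in spermatocytes (Hist2h2aa1, Hist1h2bp and Hist1h4a), then 2 with high levels in day 3 testes (Hist1h1c and Hist1h4i). The sequences are RefSeq's, on GRCm38.p6, 5′ to 3′ on the gene's own strand. Capitals mark matches to TATAAA, to CCAAT and to the octamer ATTTGCAT on either strand, the last being the element known from H2A and H2B promoters, and no matches overlap in these windows. In the order printed the windows are chr13:23695561-23695860 (plus strand), chr13:23934107-23934406 (minus), chr3:96245247-96245546 (plus), chr13:21787238-21787537 (plus), chr13:23761200-23761499 (minus), chr13:23738557-23738856 (plus) and chr13:22041313-22041612 (minus).
Hist1h1t: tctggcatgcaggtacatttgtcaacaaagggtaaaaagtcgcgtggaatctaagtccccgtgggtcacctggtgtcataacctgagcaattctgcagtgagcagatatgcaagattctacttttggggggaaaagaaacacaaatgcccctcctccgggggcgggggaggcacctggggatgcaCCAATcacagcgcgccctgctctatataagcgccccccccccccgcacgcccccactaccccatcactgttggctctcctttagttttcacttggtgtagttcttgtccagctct
Hist1h2ba: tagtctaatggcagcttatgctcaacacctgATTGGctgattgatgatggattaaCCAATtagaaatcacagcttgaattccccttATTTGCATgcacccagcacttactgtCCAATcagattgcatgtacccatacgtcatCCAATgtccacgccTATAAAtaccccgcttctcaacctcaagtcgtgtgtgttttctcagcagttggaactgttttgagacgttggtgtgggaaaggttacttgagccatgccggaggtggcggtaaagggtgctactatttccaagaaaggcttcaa
Hist2h2aa1: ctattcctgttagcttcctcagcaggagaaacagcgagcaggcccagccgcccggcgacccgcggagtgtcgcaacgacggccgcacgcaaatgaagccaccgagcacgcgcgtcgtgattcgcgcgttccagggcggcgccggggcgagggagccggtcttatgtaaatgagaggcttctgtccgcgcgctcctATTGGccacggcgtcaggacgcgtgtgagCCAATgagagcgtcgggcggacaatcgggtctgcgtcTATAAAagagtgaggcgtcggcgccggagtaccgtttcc
Hist1h2bp: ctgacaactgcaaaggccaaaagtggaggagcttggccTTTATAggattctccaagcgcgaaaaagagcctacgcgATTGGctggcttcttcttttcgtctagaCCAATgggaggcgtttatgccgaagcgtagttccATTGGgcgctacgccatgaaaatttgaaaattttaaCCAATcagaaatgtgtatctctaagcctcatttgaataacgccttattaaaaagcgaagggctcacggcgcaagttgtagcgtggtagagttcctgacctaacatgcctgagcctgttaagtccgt
Hist1h4a: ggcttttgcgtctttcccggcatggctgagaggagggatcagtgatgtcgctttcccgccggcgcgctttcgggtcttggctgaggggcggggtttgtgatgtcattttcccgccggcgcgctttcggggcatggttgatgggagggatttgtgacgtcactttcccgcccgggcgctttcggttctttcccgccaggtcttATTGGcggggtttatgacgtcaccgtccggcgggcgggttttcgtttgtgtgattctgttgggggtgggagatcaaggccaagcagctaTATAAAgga
Hist1h1c: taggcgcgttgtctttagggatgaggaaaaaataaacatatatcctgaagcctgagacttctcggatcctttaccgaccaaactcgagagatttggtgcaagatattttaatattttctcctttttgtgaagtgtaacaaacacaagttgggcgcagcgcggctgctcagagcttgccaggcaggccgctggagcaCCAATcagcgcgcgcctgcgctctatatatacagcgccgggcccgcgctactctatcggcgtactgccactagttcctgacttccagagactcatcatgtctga
Hist1h4i: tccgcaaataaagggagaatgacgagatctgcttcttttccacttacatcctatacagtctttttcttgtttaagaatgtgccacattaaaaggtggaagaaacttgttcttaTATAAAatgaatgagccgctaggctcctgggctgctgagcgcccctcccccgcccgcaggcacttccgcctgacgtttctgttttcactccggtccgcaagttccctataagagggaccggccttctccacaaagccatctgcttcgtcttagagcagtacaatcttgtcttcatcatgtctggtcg

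A RefSeq gene was matched to 69 members, and 61 of them had a window, with 62 windows in all. TATAAA was present in 35 of the 62 windows (56.5%), against 13.6% of the 32851 windows of all genes. CCAAT was present in 53 (85.5%), against 37.4% of all windows. It was found in every window of an H1, H2A, H2B or H3 gene but in 3 of the 12 windows of H4 genes, 1 of which is that of Hist1h4a. The octamer was found in 14 windows (22.6%), against 1.74% of all windows: 7 of 17 H2A windows, 7 of 17 H2B windows and no window of the other classes. Windows of neighbouring H2A and H2B genes can overlap. The octamer counted for Hist1h2ah, Hist1h2ae and Hist1h2aa is also that of Hist1h2bk, Hist1h2bg and Hist1h2ba in turn. The 14 windows thus hold fewer separate sites. TATAAA and CCAAT matches are shared between such windows too, so their counts also overstate the number of separate sites. The TTTATA marked in the printed Hist1h2bp window is the TATAAA of its neighbour Hist1h2an, read on the other strand. Among the windows printed, only that of Hist1h2ba holds the octamer. Neither linker histone window printed, Hist1h1t or Hist1h1c, holds TATAAA, and each holds 1 CCAAT. The genes for TH2B and TH2A stand 305 bp apart in the tables, and their windows lie on opposite strands with 220 bases in common, so much of the Hist1h2ba window shown is also that of Hist1h2aa.

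Most members were near the lower end of what these libraries could measure. In at least 1 column, 58 of 70 reached 1 FPKM, and 12 never did. Of all 70, 52 never reached 5 FPKM and 10 reached 10 FPKM, and the highest value was 61.7 FPKM. No H3 gene exceeded 3.81 FPKM in any column. The summed level of the 70 members was 231 FPKM in q2 and 159 in q1 at day 3, 89.2 in q2 and 90.4 in q1 in the pre-meiotic table, 255 in q2 and 347 in q1 in the leptotene/zygotene table and 302 in q2 and 328 in q1 in the pachytene table. The tables were normalized separately, so levels set side by side across them are descriptions with no test.

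**Figure D1:**
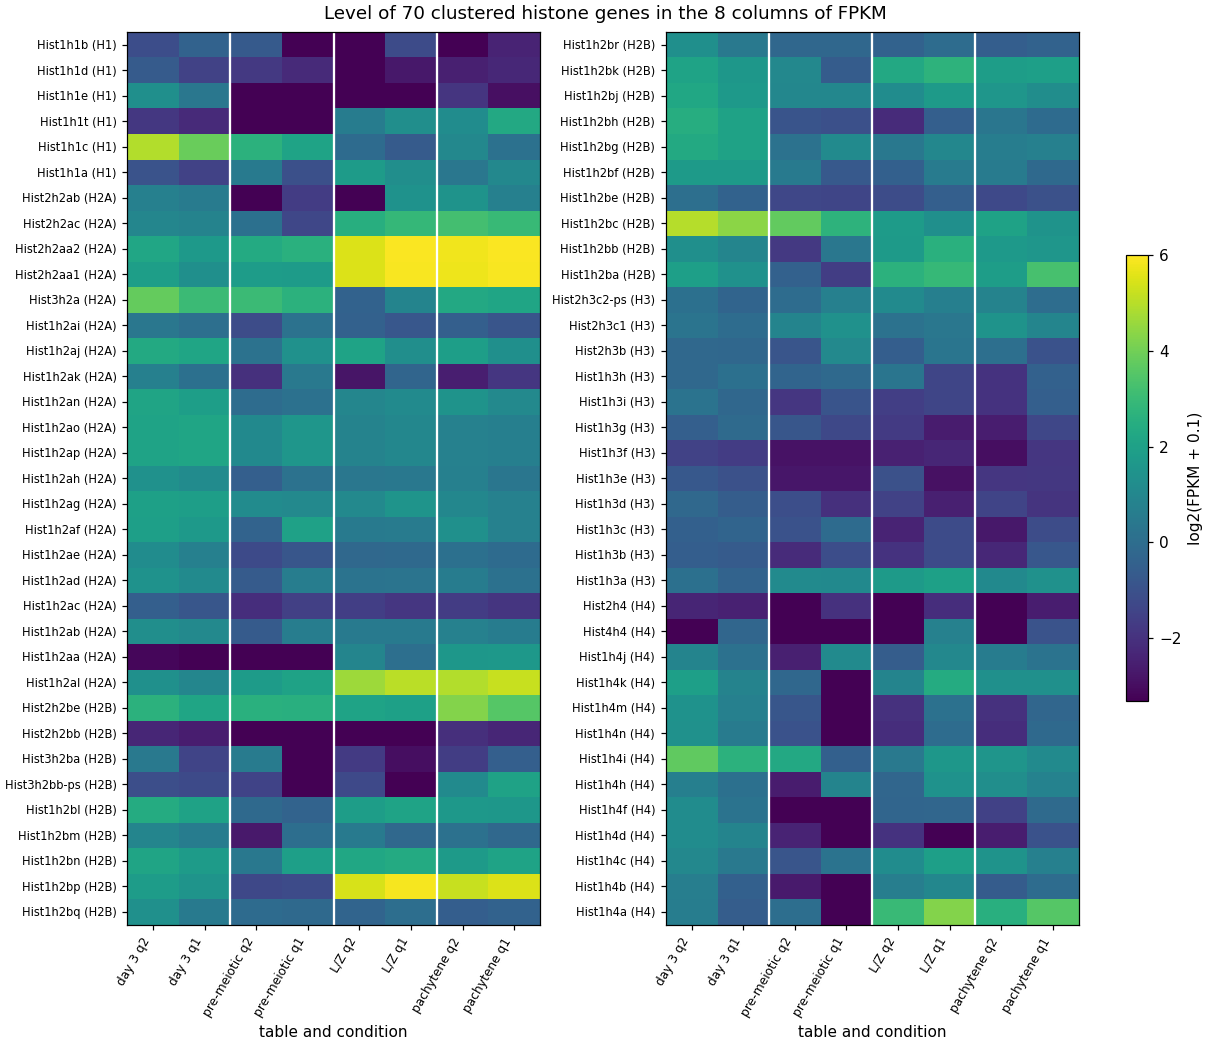
Level of each of the 70 members (rows, with the histone class in brackets) in the 8 columns of FPKM, as log2(FPKM + 0.1), with L/Z for leptotene/zygotene. Hist2h2aa1, Hist2h2aa2, Hist1h2bp and Hist1h2al are bright in the 4 spermatocyte columns, and Hist1h2bc and Hist1h1c in the day 3 columns, while the H3 genes stay at or under 3.81 FPKM throughout.

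The genes behind these sums differed between stages. In all 4 spermatocyte columns the leading members were Hist2h2aa1, Hist2h2aa2, Hist1h2bp and Hist1h2al, which held 62.4% of the summed member level in q2 and 61.6% in q1 of the leptotene/zygotene table, and 58.8% in q2 and 62.2% in q1 of the pachytene table. At day 3 they were Hist1h2bc, Hist1h1c, Hist3h2a and Hist1h4i in both conditions, with 38.0% of the sum in q2 and 31.2% in q1. Hist1h2bc and Hist3h2a also led in both conditions of the pre-meiotic table. By class, H1 held 1.86% of the member sum in q2 and 2.45% in q1 of the pachytene table, against 14.7% in q2 and 10.6% in q1 at day 3. H2A held 59.8% in q2 and 58.2% in q1 in the pachytene table, against 28.4% in q2 and 33.1% in q1 at day 3. H3 held at most 12.4% in any column, although nucleosomes hold as much H3 as H2A, H2B or H4.

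**Figure D2:**
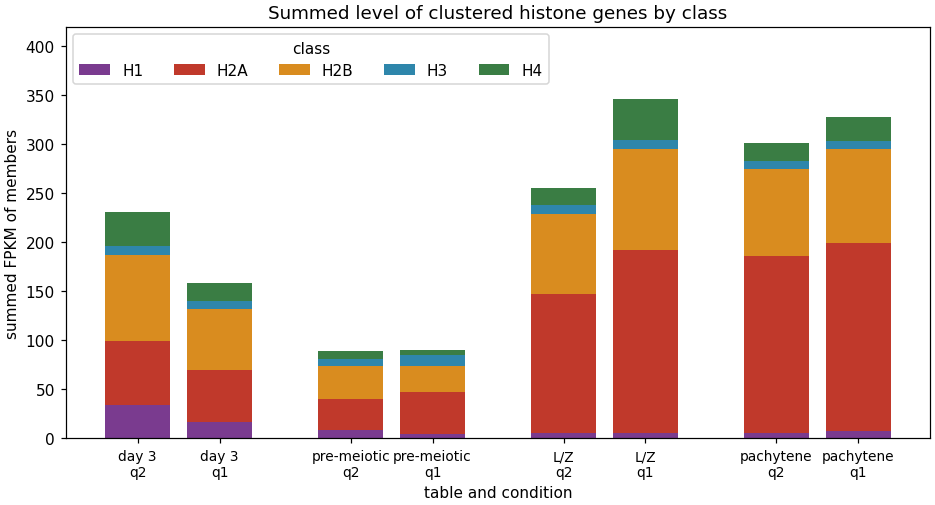
Summed FPKM of the members of each histone class (stacked colours) for each table and condition, with no error bars because each column is 1 library. The H2A segment is largest in the spermatocyte columns, where the sums run between 255 and 347 FPKM, and the H1 segment is largest at day 3.

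A gene was called higher in spermatocytes where all 4 spermatocyte columns exceeded all 4 young testis columns, which compares libraries of different tissues and tables and is no test. This held for 9 of the 58 members that reached 1 FPKM (15.5%), against 23.1% of all rows that did. The opposite held for 5 members (8.62%), against 45.1% of all rows. Both shares of members are below the background. The 9 higher members were Hist1h1t, Hist1h2aa, Hist1h2al, Hist1h2bb, Hist1h2bp, Hist1h4a, Hist2h2aa1, Hist2h2aa2 and Hist2h2ac, and the 5 lower ones were Hist1h1c, Hist1h2ao, Hist1h2ap, Hist1h2bc and Hist3h2a.

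The spermatocyte columns carry a further difference that moves with these results. All 5 round spermatid markers (Acrv1, Prm1, Prm2, Tnp1 and Tnp2) were found, and their summed level was 53821 FPKM in q2 and 45503 in q1 of the leptotene/zygotene table and 8882 in q2 and 6758 in q1 of the pachytene table. In young testes it was 60.2 FPKM in q2 and 63.0 in q1 of the pre-meiotic table and 0.873 in q2 and 2.19 in q1 at day 3. Of the 6 pachytene markers, the 5 found reached 4964 FPKM in q2 and 5454 in q1 in the leptotene/zygotene table, so that material held transcripts of later germ cells as well. The 10 S phase genes ran the other way, with 116 FPKM in q2 and 121 in q1 in the leptotene/zygotene table and 195 in q2 and 171 in q1 in the pachytene table, against 741 in q2 and 714 in q1 at day 3. Somatic cell markers ran the same way. The 4 Sertoli markers found summed to 7.34 FPKM in q2 and 7.66 in q1 in the leptotene/zygotene table and 18.3 in q2 and 14.1 in q1 in the pachytene table, against 1244 in q2 and 992 in q1 at day 3 and 485 in q2 and 458 in q1 in the pre-meiotic table. The 4 Leydig markers summed to between 4.67 and 13.3 FPKM in the spermatocyte columns, against 358 to 808 in the young ones, and the 3 peritubular markers to between 4.58 and 23.3, against 466 to 712. The 4 leptotene and zygotene markers found summed to 77.2 FPKM in q2 and 90.9 in q1 in the leptotene/zygotene table. They summed to 275 in q2 and 253 in q1 in the pachytene table and 80.1 in q2 and 152 in q1 in the pre-meiotic table. At day 3 they summed to 11.1 in q2 and 15.0 in q1. The leptotene/zygotene columns were thus not the highest in markers of their named stage. The part of these differences in the histone levels was not tested. Fewer cells of a type and less RNA per cell cannot be told apart in such material.

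The testis linker histone Hist1h1t (chromosome 13, 23787680 to 23788588) had 1.42 FPKM in q2 and 2.33 in q1 of the leptotene/zygotene table and 2.21 in q2 and 4.84 in q1 of the pachytene table. In young testes it had 0.185 FPKM in q2 and 0.118 in q1 at day 3 and was listed at 0 in both pre-meiotic columns. Its spermatocyte mean was 35.6 times its young mean, and the groups did not overlap. TH2A, Hist1h2aa, had 1.78 FPKM in q2 and 0.969 in q1 of the leptotene/zygotene table and 2.92 in q2 and 3.07 in q1 of the pachytene table, against 0.0116 in q2 at day 3 and a listed 0 in the other 3 young columns. Its neighbour Hist1h2ba, TH2B, did not share this clean split on the scale of the deposited values. It had 6.29 FPKM in q2 and 7.55 in q1 of the leptotene/zygotene table and 3.51 in q2 and 9.70 in q1 of the pachytene table, against 3.74 in q2 and 2.50 in q1 at day 3 and 0.638 in q2 and 0.223 in q1 in the pre-meiotic table. The day 3 value in q2 thus lay above the pachytene value in q2.

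The highest levels of any member were those of a pair of H2A genes of the Hist2 cluster. Hist2h2aa2 had 45.3 FPKM in q2 and 61.7 in q1 of the leptotene/zygotene table and 56.3 in q2 and 61.6 in q1 of the pachytene table, against 4.45 in q2 and 3.23 in q1 at day 3 and 5.13 in q2 and 5.96 in q1 in the pre-meiotic table. Hist2h2aa1, whose promoter is shown above, had 45.7 FPKM in q2 and 60.7 in q1 of the leptotene/zygotene table and 53.9 in q2 and 59.9 in q1 of the pachytene table, against 2.41 to 3.66 in the 4 young columns. The spermatocyte mean was 12 times the young mean for Hist2h2aa2 and 17.1 times for Hist2h2aa1. These are neighbouring copies, and Hist2h2aa1 shares its locus with the H3 gene Hist2h3c1, which had only 1.05 to 2.63 FPKM in the 4 spermatocyte columns. Hist2h2ac, the third H2A gene of the cluster with this pattern, averaged 7.51 FPKM in spermatocytes and 1.20 in young testes.

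Outside that cluster, the distant H2A gene Hist1h2al had 24.7 FPKM in q2 and 33.1 in q1 of the leptotene/zygotene table and 30.1 in q2 and 37.0 in q1 of the pachytene table, against 1.84 to 4.01 in the 4 young columns. Among H2B genes Hist1h2bp stood out. It had 43.7 FPKM in q2 and 58.0 in q1 of the leptotene/zygotene table and 36.8 in q2 and 45.5 in q1 of the pachytene table, against 3.47 in q2 and 2.73 in q1 at day 3 and 0.307 in q2 and 0.339 in q1 in the pre-meiotic table. Its spermatocyte mean was 26.9 times its young mean. The H2A gene next to it, Hist1h2an, is 242 bp away and had 1.85 to 2.68 FPKM in the 4 spermatocyte columns, so the level of Hist1h2bp was not shared by its neighbour. Hist1h2bb, another H2B gene, averaged 3.81 FPKM in spermatocytes and 1.4 in young testes.

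Hist1h4a was the highest H4 gene. It had 7.89 FPKM in q2 and 19.0 in q1 of the leptotene/zygotene table and 5.86 in q2 and 11.6 in q1 of the pachytene table, against 1.45 in q2 and 0.569 in q1 at day 3, 0.943 in q2 and a listed 0 in q1 in the pre-meiotic table. Its spermatocyte mean was 15.0 times its young mean. The genes for H3 and H1 that follow it on the chromosome, Hist1h3a and Hist1h1a, averaged 2.92 and 2.22 FPKM in spermatocytes and 1.46 and 0.588 in young testes. Hist1h3a was the highest H3 gene of the set, at 3.26 FPKM in q2 and 3.81 in q1 of the leptotene/zygotene table, and its columns overlapped between stages, as did those of Hist1h1a. Hist4h4, the lone H4 gene of chromosome 6, was listed at 0 in every q2 column and had 0.739 FPKM in q1 at day 3, 1.61 in q1 of the leptotene/zygotene table and 0.424 in q1 of the pachytene table.

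Hist1h1c, Hist1h2bc and Hist3h2a, the 3 leading members at day 3, were lower in spermatocytes. Hist1h1c, which encodes the somatic linker histone H1.2, had 0.866 FPKM in q2 and 0.540 in q1 of the leptotene/zygotene table and 1.97 in q2 and 1.02 in q1 of the pachytene table. In young testes it had 30.1 FPKM in q2 and 14.4 in q1 at day 3 and 6.34 in q2 and 4.16 in q1 in the pre-meiotic table. Hist1h1c and Hist1h1t lie in the same cluster and had opposite stage patterns, with H1t above H1.2 in all 4 spermatocyte columns and H1.2 above H1t in all 4 young columns. The H2B gene Hist1h2bc had 3.35 FPKM in q2 and 2.41 in q1 of the leptotene/zygotene table and 4.0 in q2 and 2.64 in q1 of the pachytene table, against 30.7 in q2 and 20.9 in q1 at day 3 and 13.3 in q2 and 6.34 in q1 in the pre-meiotic table. Hist3h2a averaged 2.90 FPKM in spermatocytes and 9.04 in young testes. The identical rows Hist1h2ao and Hist1h2ap averaged 1.68 FPKM in spermatocytes and 3.37 in young testes. Hist2h2be, an H2B gene of the Hist2 cluster, had its highest values in the pachytene table, at 19.3 FPKM in q2 and 11.5 in q1, but its leptotene/zygotene values of 4.17 in q2 and 3.79 in q1 were below all 4 young testis values, the lowest of which was 4.33.

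**Figure D3:**
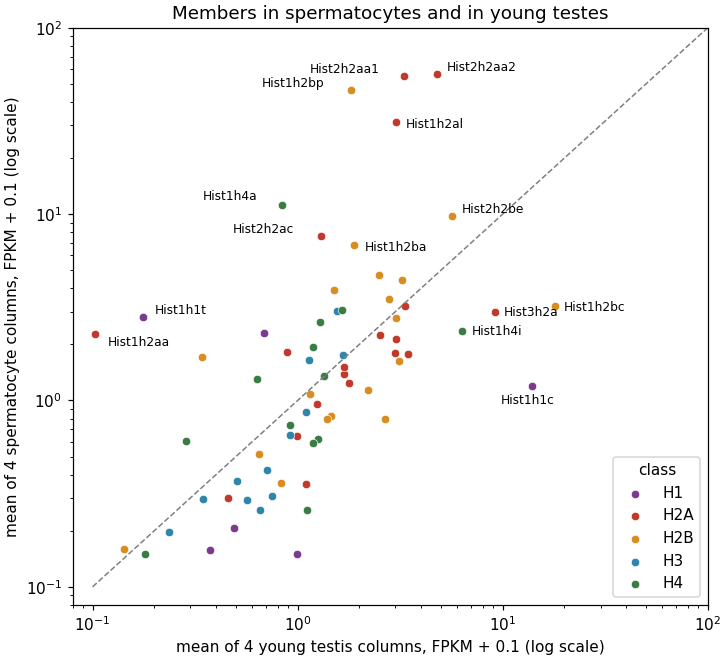
Mean FPKM + 0.1 of each member over the 4 spermatocyte columns (vertical, log scale) against the 4 young testis columns (horizontal, log scale), coloured by class, with a dashed line of equal level. Hist2h2aa1, Hist2h2aa2, Hist1h2bp, Hist1h2al, Hist1h4a and the testis genes Hist1h1t and Hist1h2aa lie well above the line, Hist1h1c and Hist1h2bc well below it, and most members near it.

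The comparison between conditions was made within each table, as log2((q2 + 0.1)/(q1 + 0.1)) for members with at least 1 FPKM in either condition. That filter admits some members only through the condition in which they are high, so counts over those that passed are descriptions and not support. The counts over all 70 are given as well. No share over all rows was computed without the filter, so the counts over all 70 and over whole classes have no background. Precision was poor for these short genes. The error implied by the authors' statistic, which covers counting and modelling error of 2 libraries, had a median of 0.48 for members against 0.28 for all rows at day 3 on the log2 scale. It was 1.54 against 0.22 in the pre-meiotic table, 1.34 against 0.35 in the leptotene/zygotene table and 0.79 against 0.36 in the pachytene table. Read depth is unknown, since the tables hold no counts.

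At day 3 nearly every member had a higher value in q2. Among the 49 that passed the filter, 46 were higher in q2 (background 53.3%), and the median log2 ratio was 0.45, against 0.05 over all rows. Without the filter 62 of 70 were higher and 8 lower. At least 2-fold higher values were seen for 6 members (background 3.8%), namely Hist1h1c, Hist1h4a, Hist1h4b, Hist1h4i, Hist1h4k and Hist3h2ba, and at least 2-fold lower values for 0 (background 7.78%). The authors' deposited table gave a q-value of at most 0.05 to 3 of the 69 members it tested (4.35%), against a background of 14.8%, so called members were rarer than called rows at large. All 3 rose, and 9 had an unadjusted p of at most 0.05 there. All 11 H4 genes that passed were higher, with a median of 0.84, and so were 12 of all 13 H4 genes and 18 of all 19 H2B genes.

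Hist1h1c had 30.1 FPKM in q2 and 14.4 in q1 at day 3, and in the authors' deposited table it rose by 1.06 on the log2 scale with an implied error of 0.30 (q = 0.00413). Hist1h4i, an H4 gene whose promoter is printed above, had 13.2 FPKM in q2 and 6.25 in q1, and the authors' deposited table gave a log2 ratio of 1.08 with an implied error of 0.40 (q = 0.0451). The H2B gene Hist1h2bq had 2.44 FPKM in q2 and 1.29 in q1, with a log2 ratio of 0.92 and an implied error of 0.27 in the authors' deposited table (q = 0.00599). Its near copy Hist1h2br had 2.39 FPKM in q2 and 1.25 in q1 and just missed the threshold (q = 0.052 in the authors' deposited table). Hist3h2ba had the highest ratio of the members that passed, with 1.25 FPKM in q2 and 0.276 in q1. At the other end, Hist1h2ao and Hist1h2ap had 4.18 FPKM in q2 and 4.41 in q1, and Hist1h2bf 3.29 in q2 and 3.32 in q1.

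At day 3 the ratios of other rows moved with the length of the locus, and the members' shift moved with the scale of the columns. The 35 members of up to 1 kb that passed the filter had a median log2 ratio of 0.44. Among other rows that passed it, the median was 0.40 for loci of up to 1 kb, 0.34 for 1 to 5 kb, 0.18 for 5 to 20 kb, -0.09 for 20 to 100 kb and -0.24 above 100 kb. Of the short members 91.4% were higher in q2, against 73.3% of other loci of that length. At least 2-fold higher were 11.4% of the short members, against 9.99% of the other short loci. The summed FPKM of all rows was 1347950 in q2 and 1042460 in q1, and with both columns rescaled to a sum of 1000000 the members' median was 0.10 and 0 members were at least 2-fold higher. Of every 1000000 FPKM, members held 172 in q2 and 152 in q1. Cell type markers also differed between the day 3 columns. The 4 markers of undifferentiated spermatogonia summed to 14.2 FPKM in q2 and 23.1 in q1, with 3 called lower in the authors' deposited table, and those of differentiating spermatogonia and meiotic entry to 13.6 in q2 and 22.5 in q1, with 1 called lower. The 4 Leydig markers summed to 611 in q2 and 808 in q1, with 2 called lower. The part of locus length, scaling and these markers in the result was not tested.

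**Figure D4:**
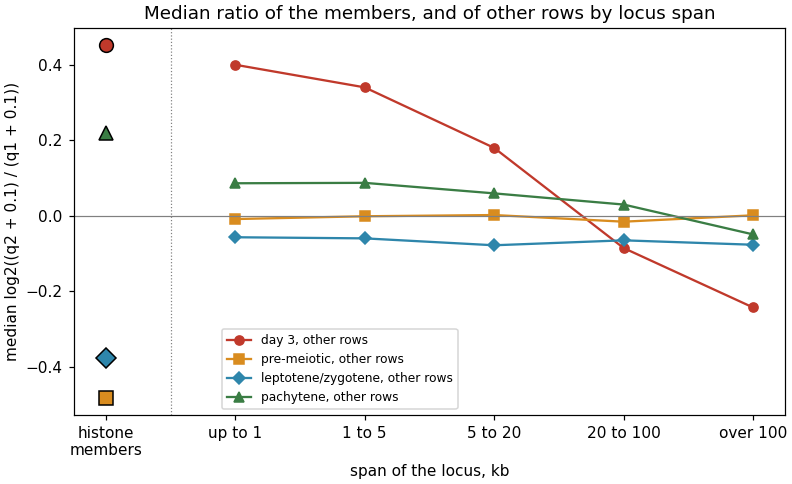
Median log2((q2 + 0.1)/(q1 + 0.1)) of the histone members that passed the filter (outlined symbols at the left) and of other rows in 5 classes of locus span in kb (lines, 1 per table). At day 3 the members stand at 0.45 and the other rows run from 0.40 for the shortest loci to -0.24 for the longest, while the lines of the other tables are nearly level.

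In the pre-meiotic table members scattered in both directions, and none had a q-value of at most 0.05 in the authors' deposited table. Among the 34 that passed the filter, 12 were higher in q2 (background 48.8%), with a median of -0.48, against -0.01 over all rows. Without the filter 29 of 70 were higher, 35 lower and 6 equal, with a median near 0. At least 2-fold higher values were seen for 6 members (background 4.21%) and at least 2-fold lower values for 12 (background 4.49%). Of the members of up to 1 kb that passed, 20% were at least 2-fold higher and 40% at least 2-fold lower. Among other loci of that length the shares were 9.73% and 11.1%. The authors' deposited table called 0 of 54 tested members (background 1.15%), with 3 at an unadjusted p of at most 0.05. H4 shows how much the filter decides: the median was -2.29 over the 4 H4 genes that passed and 0.69 over all 13. Of the leading genes, Hist1h2bc had 13.3 FPKM in q2 and 6.34 in q1 with an implied error of 0.42 and q = 0.26 in the authors' deposited table. Hist1h4i had 4.89 FPKM in q2 and 0.624 in q1, with q = 0.475 in the authors' deposited table. The lowest ratios were those of the H4 genes Hist1h4j, with 0.0781 FPKM in q2 and 2.09 in q1, and Hist1h4h, with 0.0656 in q2 and 1.75 in q1, followed by the H2A gene Hist1h2ak with 0.148 in q2 and 1.26 in q1. In the authors' deposited table Hist1h4j and Hist1h4h had the same log2 ratio of -4.74 with an implied error of 11.6 (q = 0.936). Their values may thus hold 1 measurement here, although both enter the count of 12 and the H4 median of -2.29. Among the highest ratios were those of Hist1h2bk, with 1.97 FPKM in q2 and 0.553 in q1, and Hist3h2ba, with 1.38 in q2 and a listed 0 in q1. The commonest ratio of q2 to q1 among genes with low values, held by 254 of 1680, was 0.673 here. It was taken as the worth of a single fragment in q2 relative to q1, with no counts to check it. Of the 5 leptotene and zygotene markers, the 4 found summed to 80.1 FPKM in q2 and 152 in q1 in that table, with 3 called lower in the authors' deposited table, and the 4 blood markers to 724 in q2 and 455 in q1, with all 4 called higher. The part of these markers in the histone values was not tested.

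Leptotene/zygotene members had mostly lower values in q2, and the H4 genes most of all. Among the 44 that passed the filter, 8 were higher in q2 (background 42.6%), and the median was -0.38, against -0.07 over all rows. Without the filter 17 of 70 were higher and 51 lower, with a median of -0.31. At least 2-fold higher values were seen for 1 member, the H3 gene Hist1h3h (background 6.36%), and at least 2-fold lower values for 10 (background 7.39%), 7 of them H4 genes. Of the members of up to 1 kb that passed, 3.03% were at least 2-fold higher and 24.2% at least 2-fold lower. Among other loci of that length the shares were 10.9% and 14.2%. For Hist2h2ab and Hist4h4 the lower value is a listed 0. The authors' deposited table called 0 of 55 tested members (background 2.14%), with 1 at an unadjusted p of at most 0.05. All 9 H4 genes that passed had lower values in q2, with a median of -1.50, and so did 12 of all 13, with a median of -1.26. Every other class had a median between -0.33 and -0.08 over those that passed.

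The unadjusted exception was Hist1h4a, with 7.89 FPKM in q2 and 19.0 in q1, a log2 ratio of -1.27 and an implied error of 0.46 in the authors' deposited table (q = 0.151). Hist1h4k, the H4 gene with the next highest mean in that table, had 1.77 FPKM in q2 and 5.17 in q1, and Hist1h4m had 0.152 in q2 and 1.02 in q1. The summed level of all 13 H4 genes was 17.1 FPKM in q2 and 41.7 in q1. The abundant members differed less, with 45.3 FPKM in q2 and 61.7 in q1 for Hist2h2aa2 and 43.7 in q2 and 58.0 in q1 for Hist1h2bp, whose log2 ratio of -0.41 had an implied error of 0.26 (q = 0.588 in the authors' deposited table). TH2A and the H2A gene Hist1h2aj had the highest ratios after Hist1h3h, with 4.12 FPKM in q2 and 2.31 in q1 for Hist1h2aj. Hist2h2ab was listed at 0 in q2 and had 2.62 FPKM in q1, while its deposited locus of over 10 kb reaches up to Hist2h2ac.

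Markers of other cells also moved between the leptotene/zygotene columns. The 4 blood markers summed to 333 FPKM in q2 and 38.7 in q1, and the 3 peritubular markers to 23.3 in q2 and 4.58 in q1, with every one of these 7 at least 2-fold higher in q2. Round spermatid markers stood at 53821 in q2 and 45503 in q1, and S phase genes at 116 in q2 and 121 in q1. The part of these markers in the lower histone values was not tested. Rescaling both columns to a sum of 1000000 left the members' median at -0.44.

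Pachytene members above the filter had no common direction between conditions. Among the 42 that passed the filter, 27 were higher in q2 (background 53.4%), with a median of 0.22, against 0.03 over all rows, but without the filter 34 of 70 were higher, 36 lower and the median was -0.02. Among those that passed, at least 2-fold higher values were seen for 0 members (background 4.48%) and at least 2-fold lower values for 2 (background 6.17%). Of the members of up to 1 kb that passed, 0% were at least 2-fold higher and 6.45% at least 2-fold lower. Among other loci of that length the shares were 5.95% and 15.3%. Over all 70, where the added members stayed under 1 FPKM in both conditions, 2 were at least 2-fold higher and 14 at least 2-fold lower, among them 6 H3 and 5 H4 genes. The median over all genes of the class was -0.71 for H3 and -0.75 for H4. These counts and medians have no background of other rows under 1 FPKM, so they cannot be told from what low values do in general. The authors' deposited table called 0 of 67 tested members (background 1.63%), with 2 at an unadjusted p of at most 0.05.

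Of members that reached 1 FPKM in the pachytene table, the 2 with at least 2-fold lower values were the testis variants Hist1h1t and Hist1h2ba. Hist1h1t had 2.21 FPKM in q2 and 4.84 in q1, a log2 ratio of -1.13 with an implied error of 0.61 in the authors' deposited table (q = 0.478). Hist1h2ba had 3.51 FPKM in q2 and 9.70 in q1, a log2 ratio of -1.47 with an implied error of 0.70 in the authors' deposited table (p = 0.0367, q = 0.396). Neither passed the threshold. TH2A had 2.92 FPKM in q2 and 3.07 in q1. Hist1h4a followed, with 5.86 FPKM in q2 and 11.6 in q1 (q = 0.526 in the authors' deposited table). The highest ratios were those of Hist1h1c, with 1.97 FPKM in q2 and 1.02 in q1, the pseudogene-named Hist2h3c2-ps, with 1.71 in q2 and 0.917 in q1, and the H4 gene Hist1h4c, with 2.67 in q2 and 1.55 in q1. Hist3h2bb-ps, also named as a pseudogene, had 2.09 FPKM in q2 and 4.05 in q1. Hist2h2be had 19.3 FPKM in q2 and 11.5 in q1 with a p of 0.0177 and q = 0.279 in the authors' deposited table. The commonest ratio of q2 to q1 among genes with low values, held by 274 of 3651, was 1.91 here. It was taken as the worth of a single fragment in q2 relative to q1, with no counts to check it. The blood and peritubular markers were again higher in q2, at 13.6 FPKM in q2 and 3.36 in q1 and at 19.0 in q2 and 6.65 in q1.

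**Figure D5:**
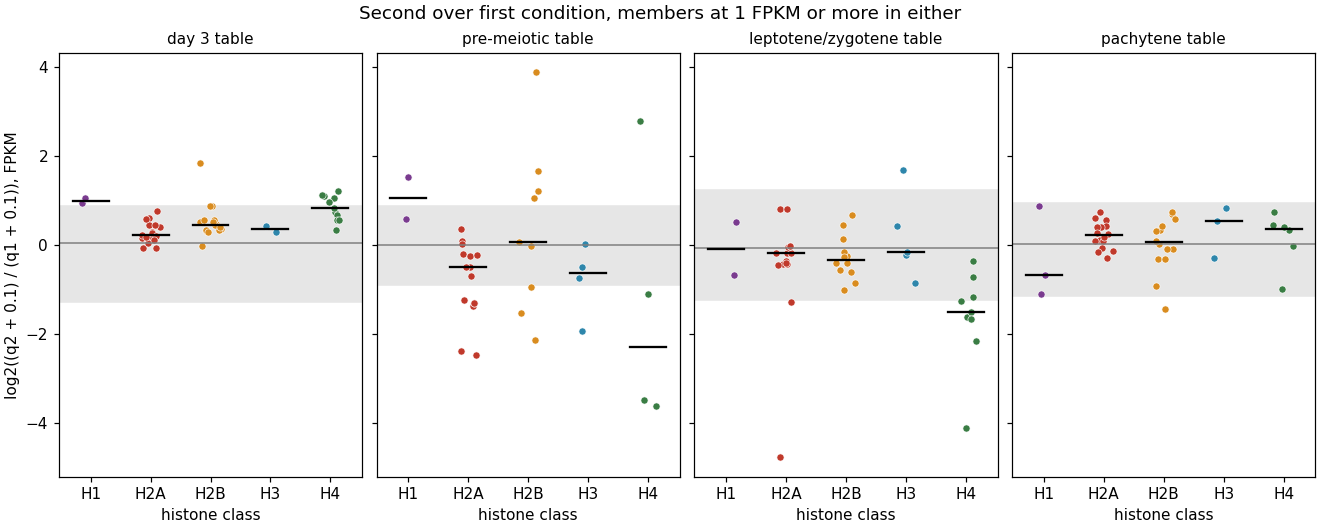
Log2((q2 + 0.1)/(q1 + 0.1)) of each member that passed the filter (points), by class and table, with class medians as black bars; the grey line is the median of all other rows and the grey band spans their 5th to 95th percentile. H4 genes have medians of 0.84 at day 3 and -1.50 in the leptotene/zygotene table, and the pre-meiotic points scatter most widely.

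Genes that act on histone mRNA were described from a list of 19. In the authors' deposited table for day 3, 1 of them rose and 3 fell (14.8% of all tested rows were called). The median log2 ratio with the pseudocount was -0.06 over the 18 that passed the filter. Day 3 ratios of rows at large fell with locus length, as given above, and the part of length in the calls below was not tested. In the authors' other deposited tables none of the list was called in the pre-meiotic one (1.15% of all tested rows), 2 fell in the leptotene/zygotene one (2.14%) and 1 fell in the pachytene one (1.63%). Slbp, whose protein binds the histone stem-loop, had 171 FPKM in q2 and 138 in q1 at day 3 and 39.4 in q2 and 45.2 in q1 in the leptotene/zygotene table, and it was not called in any table. Npat, a coactivator of histone transcription, had 8.53 FPKM in q2 and 13.5 in q1 at day 3 (q = 0.0755 in the authors' deposited table). Casp8ap2, a partner of Npat in histone locus bodies, fell to 8.93 FPKM in q2, against 22.8 in q1, at day 3, a log2 ratio of -1.35 in the authors' deposited table with q = 3.65e-05. Zcchc11, a uridylyltransferase of RNA ends, rose to 113 FPKM in q2, against 77.0 in q1, at day 3 and fell to 22.9 in q2, against 58.5 in q1, in the leptotene/zygotene table, with log2 ratios of 0.55 and -1.35 in the authors' deposited tables. In the pachytene table it fell to 29.9 FPKM in q2, against 48.1 in q1 (q = 0.0465 in the authors' deposited table). Its relative Zcchc6 fell to 10.5 FPKM in q2, against 16.8 in q1, at day 3 (q = 0.00053 in the authors' deposited table). Cstf2, a factor of mRNA 3′ end formation, fell by 1.27 at day 3 and by 0.95 in the leptotene/zygotene table on the log2 scale of the authors' deposited tables.

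Of 9 histone chaperones, the authors' deposited table called 1 higher and 2 lower at day 3 (14.8% of all tested rows) and 1 lower in the pre-meiotic table (1.15%), and none in the leptotene/zygotene table (2.14%) or the pachytene table (1.63%). Npm1 rose to 554 FPKM in q2, against 387 in q1, at day 3, while Atrx fell to 29.7 in q2, against 107 in q1, and Hira to 29.0 in q2, against 45.4 in q1. The part of locus length in these day 3 calls was not tested either. Nasp, a carrier of H1 and H3-H4 that is abundant in spermatocytes, fell to 182 FPKM in q2, against 225 in q1, in the pre-meiotic table, with q = 0.0021 in the authors' deposited table. It had 809 FPKM in q2 and 903 in q1 in the pachytene table, against 120 in each condition at day 3.

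The clustered genes were far below a list of variant and replacement histone genes outside the clusters in summed FPKM. As said above, the levels are those of transcripts that a poly(A) selection retains, so the gap is no measure of total histone mRNA. In the leptotene/zygotene table the 70 clustered genes summed to 255 FPKM in q2 and 347 in q1, against 2271 in q2 and 2447 in q1 for the 15 genes of that list. At day 3 the clustered genes had 231 in q2 and 159 in q1, against 3013 in q2 and 2578 in q1. The members' day 3 median of 0.45 lay close to the 0.49 of the 11 listed genes that passed the filter. It also lay close to the 0.40 of other loci of up to 1 kb, and the part of locus length in either median was not tested. The authors' deposited table called 3 of the 15 listed genes higher and none lower at day 3, where it called 14.8% of all tested rows. H2afz, the variant H2A.Z, rose to 280 FPKM in q2, against 180 in q1, H2afx, which is phosphorylated at DNA breaks, to 174 in q2, against 96.3 in q1, and Cenpa, the histone H3 of centromeres, to 116 in q2, against 80.1 in q1. H3f3b, a gene for the replacement histone H3.3, had 988 FPKM in q2 and 922 in q1 at day 3, and fell to 98.5 in q2, against 148 in q1, in the leptotene/zygotene table, a log2 ratio of -0.59 with q = 0.00144 in the authors' deposited table. H3f3a, the other H3.3 gene, had 161 FPKM in q2 and 201 in q1 there and was not called. H1f0, a linker histone of resting cells, had 6.49 FPKM in q2 and 4.90 in q1 in the leptotene/zygotene table, against 520 in q2 and 562 in q1 at day 3. The sum of H3f3a and H3f3b thus exceeded the level of the highest clustered H3 gene in every column.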

How the data were processed

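The authors sequenced mRNA libraries on an Illumina HiSeq2000 after Trizol extraction, per the labels and the series' design text. Cuffdiff, Cufflinks 1.1.0, Bowtie 0.12.7 and TopHat 1.3.0 were used, per the submitters' processing notes. The authors deposited, per the file headers, 4 tables of 36806 rows with FPKM per condition, a log2 fold change with an extreme value in place of an infinite ratio, a test statistic (a score), a p-value and a q-value. Depth per sample is not given, and 1 library per condition gives no replicate error. The implied error is the authors' log2 fold divided by their statistic, and it is the only measure of precision.

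From the FPKM, log2 ratios with a pseudocount of 0.1 were computed, with a filter of at least 1 FPKM in either condition, a call at a 2-fold ratio, and the authors' q-value of at most 0.05. No test of differences was added. The ratio step was tested on simulated data. What 1 fragment is worth in one condition relative to the other was read from steps in FPKM values up to 0.3. The tables' starts count from 0 and are printed counted from 1, because 3566 RefSeq gene lengths equal end minus start and 335 equal that plus 1.

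Named members are the testis variants, those with q of at most 0.05, the 3 highest of each class, the 3 highest and 3 lowest ratios of each table, and Hist3 and Hist4 genes that reach 1 FPKM. Members named because their spermatocyte and young columns did not overlap, neighbours in a cluster, and members with matching ratios were chosen after their values were seen. Members and lists were chosen with earlier results of these data known. Alternatives were other pseudocounts, filters and scalings, the unadjusted p, and rows that share a locus left out. The scripts used Python 3.11.15, numpy 2.4.6, pandas 2.3.3 and matplotlib 3.10.9.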

Additional observations from a re-analysis of the deposited data

How the results depend on the processing

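Of 124 alternatives 89 were labelled as near the reported value, among them 23 of 28 recomputed medians. For medians the label meant inside a range set by the spread of the members, which are not independent. The pre-meiotic median went from -0.48 to -0.00097 with no filter and still had the label. For summed levels the allowed distance was set by the gap between the conditions, so leaving 1 condition out always kept the label. These counts are thus no measure of robustness. With a pseudocount of 1 FPKM, members at least 2-fold higher numbered 1 at day 3, 2 in the pre-meiotic table and 0 in the leptotene/zygotene table, and those at least 2-fold lower 5 in the pre-meiotic table, 5 in the leptotene/zygotene table and 1 in the pachytene table. With no filter on low values, at least 2-fold higher were 14 in the pre-meiotic table, 6 in the leptotene/zygotene table and 2 in the pachytene table, and at least 2-fold lower 1 at day 3, 16 in the leptotene/zygotene table and 14 in the pachytene table, where the median reversed to -0.018. With a mean of at least 5 FPKM, the median was 0.77 over 5 members at day 3, reversed to 0.35 over 5 members in the pre-meiotic table and to -0.22 over 8 members in the pachytene table. That filter left 2 members at least 2-fold higher at day 3, 1 in the pre-meiotic table and 0 in the leptotene/zygotene table, and at least 2-fold lower 0 in the pre-meiotic table, 1 in the leptotene/zygotene table and 1 in the pachytene table. With columns rescaled to a sum of 1000000, the day 3 median was 0.10 with 0 members at least 2-fold higher, 1 pachytene member was at least 2-fold higher, and the mean summed level was 121 in the pre-meiotic table and 389 in the pachytene table. Without rows that share a locus that level was 74.2 FPKM in the pre-meiotic table and 244 in the pachytene table. An unadjusted p of at most 0.05 in the authors' deposited tables was reached by 9 members at day 3, 3 in the pre-meiotic table, 1 in the leptotene/zygotene table and 2 in the pachytene table. Chosen after seeing the data, rescaling and leaving out the leptotene/zygotene table each gave 12 members higher in spermatocytes and 8 lower, which included the 9 and 5 reported; over all rows the shares were 21.9% and 40.7% with rescaling and 26.8% and 49.1% without that table. The filters change which members enter; for the other settings the cause was not tested. No paired analysis was possible because each condition has 1 library and the columns carry no replicate number. Short loci and low FPKM limit what the members can show.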
